A study of Mus musculus with 13 samples.

Results

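Oxidative phosphorylation genes are the structural genes of the 5 enzyme complexes that carry electrons to oxygen and make ATP in the inner mitochondrial membrane. Members were taken from the deposited gene table by symbol: Nduf genes of the a, b, c, s and v series, Sdha to Sdhd, symbols starting with Uqcr, the Cox4 to Cox8 genes, symbols starting with Atp5, and the mitochondrially encoded mt-Nd, mt-Co, mt-Cytb and mt-Atp genes. This gave 100 of 34745 genes, 87 encoded in the nucleus and 13 in mitochondrial DNA. The filter on low counts kept 94 of them, 81 nuclear and all 13 mitochondrial. The kept nuclear members comprise 36 of complex I, 4 of complex II, 8 of complex III, 15 of complex IV and 18 of complex V, sorted by symbol.

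The symbol rule has some edges. Ndufa4 was sorted with complex I by its name, although the protein is now placed with complex IV. Atp5sl and Atp5s carry the Atp5 prefix, but Atp5sl encodes a complex I assembly protein. Atp5l2-ps, Atp5k-ps2, Atp5l-ps1 and Atp5l-ps2 are pseudogenes. The 6 members left out by the filter are Atp5k-ps2, Atp5l-ps1, Atp5l-ps2, Cox7b2, Cox8b and Cox8c, and Cox8c had 0 counts in all 13 libraries.

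Complex I (NADH dehydrogenase) and complex II (succinate dehydrogenase) pass electrons to ubiquinone, complex III passes them to cytochrome c, complex IV (cytochrome c oxidase) reduces oxygen, and complex V (ATP synthase) makes ATP from the proton gradient. Mitochondrial DNA encodes core subunits of complexes I, III, IV and V and is transcribed from both strands as long precursors that are cut into single mRNAs. The remaining subunits, and all of complex II, are made from nuclear genes, so assembly draws on products of both genomes. Neurons of the olfactory bulb, the first brain relay of smell, depend on this pathway for most of their ATP.

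Total RNA of whole olfactory bulb came from wild type C57BL/6 mice, aged 7 to 8 weeks and described as male. The labels divide 13 libraries into a 1st set, with 4 controls given no treatment and 3 samples given fine particulate matter (PM2.5) at 3 mg/kg, and a 2nd set, with 3 untreated controls and 3 samples at 10 mg/kg. Both doses carry the note "/3 day". The sources used here do not give what this note means, the route, or what parts the 1st set from the 2nd. Exposed samples were set against controls of the same set, and the 2nd-set controls were compared with the 1st-set controls to show how far the members differ without exposure. Nothing in the labels says whether replicates came from separate mice, so a p-value speaks only to the spread among these libraries, which may be technical.

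Libraries of the 1st set held 13 to 14.7 M counts and those of the 2nd set 15.4 to 27.0 M. The deepest control (2nd-set control 2, 27.0 M) and the deepest exposed library (10 mg/kg sample 3, 25.5 M) stood apart from the rest of their groups in the members. Xist was called lower, and 4 Y-linked genes higher, in the 2nd-set controls than in the 1st-set controls. The median log2 difference over these 5 genes was 10.6. Their summed level was 2250 to 2710 CPM in 1st-set controls and 179 to 222 CPM in 2nd-set controls. This sum pools Xist with the 4 genes that went the other way, so it does not give the direction of each gene. Differences of this size do not match the description of all mice as male. Set, sequencing depth and sex-linked expression therefore cannot be told apart between the sets. Within each dose comparison no sex-linked gene was called. Bulb neuron markers summed to 2750 to 2920 CPM in 1st-set controls and 3120 to 3470 CPM in 2nd-set controls, where CPM is the usual depth-scaled count after TMM scaling.

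Some mitochondrial members cannot be counted independently, because their sequences overlap or have near-identical copies in the nuclear genome. The stretch where mt-Atp8 ends and mt-Atp6 begins is shown because both reading frames use the same 43 bases, MT:7927-7969 on the plus strand of GRCm38, printed in capitals with flanks of lower-case letters.
mt-Atp8/mt-Atp6, MT:7897-7999: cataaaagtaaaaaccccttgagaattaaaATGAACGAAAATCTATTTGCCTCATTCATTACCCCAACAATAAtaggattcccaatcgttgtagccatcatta
mt-Nd4l/mt-Nd4, MT:10137-10203: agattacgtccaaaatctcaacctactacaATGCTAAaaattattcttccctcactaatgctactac
The second stretch shows the 7 bases, MT:10167-10173, that mt-Nd4l and mt-Nd4 share, again in capitals.

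A block of chromosome 1 (GRCm38 1:24611535-24616197) holds annotated full or partial nuclear copies matched to 7 of the 13 mitochondrial members. Each copy was assigned to 1 member, the one of which it held the largest share of sequence. Gm10925 contained 99.5% of the 50-base stretches of mt-Atp6, and 36.9% of the counts of this pair were listed under Gm10925. For the pairs mt-Co3 with Gm28437, mt-Co2 with Gm28661, mt-Nd3 with Gm28438 and mt-Nd4l with Gm10222, 98.0 to 99.9% of stretches were shared. The nuclear copy held 9.41 to 12.2% of the counts of those pairs. Matches were partial for mt-Co1 with Gm29216 (28.7% of stretches shared) and mt-Nd4 with Gm28439 (62.2%). Levels of these members therefore depend on where the authors' counting placed shared reads. Adding the counts of the copies left mt-Nd4, mt-Nd4l, mt-Nd5 and mt-Cytb called lower in the 2nd-set controls than in the 1st. mt-Nd6 stayed called higher, and mt-Co3, not called without the copies, was then called higher.

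On the per-length scale (FPKM, the authors' fragments per kilobase scaled by library total), the mitochondrial mRNAs stood far above the nuclear members. Over the 13 libraries the highest mean level was 7436 FPKM for mt-Co1, the catalytic core of cytochrome c oxidase, followed by 5926 for mt-Co3 and 2307 for mt-Co2. The lowest of the 13 was mt-Nd5, a proton-pumping subunit of complex I, at 361 FPKM. Among nuclear members only Cox8a, a small subunit of complex IV, reached this range, at 525 FPKM. Cox6b1 followed at 222 FPKM, then the catalytic ATP synthase subunits Atp5a1 and Atp5b at 137 and 136 FPKM.

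Median levels of the nuclear members with a count were 17.5 FPKM for complex I, 45.3 for complex II, 40.9 for complex III, 28.7 for complex IV and 10.1 for complex V. The complex V value is over all 21 symbols with the Atp5 prefix, including the pseudogenes and Atp5sl. The ubiquitous isoforms of complex IV dominated the isoforms known from other tissues. Cox4i1 stood at 86.8 FPKM against 0.483 for Cox4i2, the lung isoform. Cox6a1 stood at 68.2 FPKM against 1.12 for the muscle and heart isoform Cox6a2, and Cox7a2 at 126 against 2.95 for the muscle isoform Cox7a1. Cox8b, another muscle isoform, stood at 0.211 FPKM, and the testis isoform Cox6b2 at 0.370 against 222 for Cox6b1. The identical membrane ring subunit of ATP synthase is encoded by 3 genes. On the per-length scale Atp5g3 (33.1 FPKM) stood ahead of Atp5g1 (2.86) and Atp5g2 (1.04). Gene lengths behind the FPKM include long alternative exons, for example 9797 bases for Atp5g1 and 7116 for Ndufb2 against 545 for Cox8a. The levels of such genes are understated against compact ones, and the order of the 3 ring subunit genes may rest on these lengths.

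**Figure D1:**
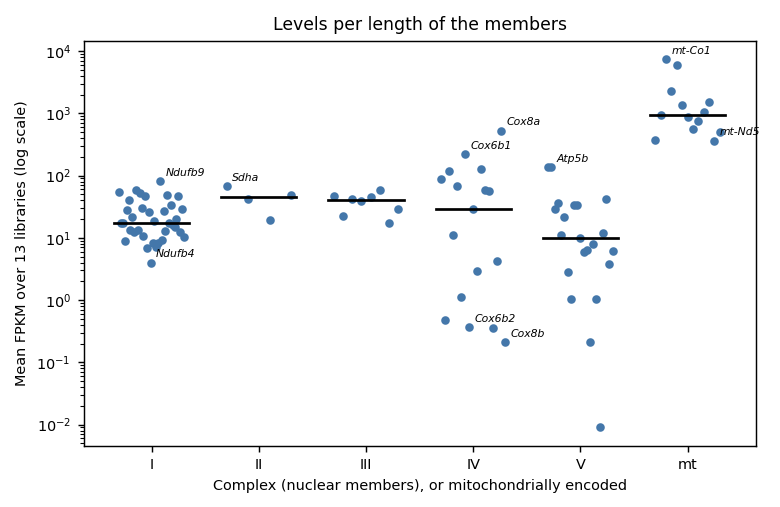
Mean FPKM over 13 libraries (log axis) of each member with a count, by complex for nuclear genes and in the last column for the 13 mitochondrial mRNAs; lines are medians over these members. The mitochondrial mRNAs run from 361 to 7436 FPKM, and among nuclear members only Cox8a at 525 FPKM falls in that range.

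At 10 mg/kg no member was called against the 2nd-set controls: 0 of 94 passed an adjusted p of 0.05 in edgeR's quasi-likelihood test, where 0.641% of all 17467 genes were called. DESeq2 and limma-voom also called 0 members. At an unadjusted p under 0.05 there were 4 members, against 9.65% of all genes, and all 4 had lower values in the exposed libraries, against 3.89% of all genes in that direction: Ndufb4, Ndufb5, Cox7a2 and Atp5f1. The median log2 difference was -0.13 over the nuclear members, with 71 of 81 below 0, and -0.0005 over the mitochondrial members, with 7 of 13 below 0. Over all genes tested the median was -0.01 and 52.8% were below 0.

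The nuclear lean at 10 mg/kg depended on 1 control library. Without 2nd-set control 2 the median of the nuclear members was 0.09, with 58 of 81 above 0. Leaving out exposed sample 3 instead moved it to -0.29, with 27 members at an unadjusted p under 0.05 and still 0 called. Without both of these deepest libraries it was -0.07, with 51 of 81 below 0. Set against the mean of the 1st-set controls, the median nuclear member stood at 0.26, 0.86 and 0.38 on the log2 scale in 2nd-set controls 1 to 3, and at 0.27, 0.25 and 0.66 in the 10 mg/kg samples 1 to 3. The groups thus overlapped, and each held 1 library well above the other two. Control 2 was the highest library of its group for 77 of the 81 nuclear members and exposed sample 3 for 75 of 81.

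**Figure D2:**
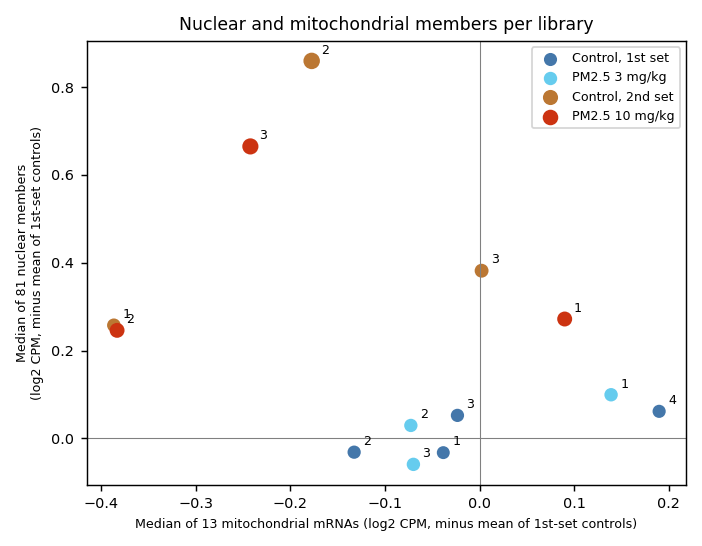
Each point is 1 library: the median over 13 mitochondrial mRNAs (horizontal) and over 81 nuclear members (vertical) of log2 CPM minus the mean of the 1st-set controls; numbers are replicates and point area grows with the library total. The libraries of the 2nd set lie above those of the 1st, and 2nd-set control 2 (0.86) and 10 mg/kg sample 3 (0.66) lie highest.

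Ndufb4, an accessory subunit of the membrane arm of complex I, was the only member whose exposed libraries all lay outside their controls at 10 mg/kg, against 4.36% of all genes lower without overlap and 10.4% in either direction. Its levels were 9.41, 10.4 and 8.52 CPM in the controls and 6.65, 5.74 and 8.38 CPM in the exposed samples. Every exposed value lay below every control, but sample 3 missed the lowest control by little. The log2 difference was -0.44 (SE 0.17, unadjusted p = 0.0213, edgeR adjusted p = 0.373), with a 95% interval of -0.81 to -0.08.

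Ndufb5, another membrane arm subunit, stood at 56.8, 84.0 and 62.4 CPM in the controls and at 51.0, 53.0 and 58.3 CPM after exposure, a log2 difference of -0.33 (SE 0.13, edgeR adjusted p = 0.378). The groups overlapped, since exposed sample 3 exceeded control 1. Ndufb5 overlaps Mrpl47 on the opposite strand, and reads of the pair cannot be told apart where strand was not used in counting.

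In complex II, Sdha, the flavoprotein that oxidises succinate, stood at 381, 489 and 369 CPM in the 2nd-set controls and 392, 419 and 470 CPM at 10 mg/kg. These ranges overlapped almost fully (log2 difference 0.05, SE 0.10, edgeR adjusted p = 0.960). Its iron-sulfur partner Sdhb had the lowest value of the complex, -0.22 (SE 0.15, edgeR adjusted p = 0.742). In complex III all 8 nuclear members lay below 0, from -0.23 for the Rieske protein Uqcrfs1 to -0.05 for the core protein Uqcrc1, and none was called.

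Complex IV had the widest range of differences at 10 mg/kg among the nuclear members, -0.33 to 0.58. Cox7a2, the common subunit 7a isoform, stood at 124, 158 and 102 CPM in the controls and 94.6, 96.0 and 115 CPM in the exposed samples. The values overlapped through exposed sample 3, and the log2 difference was -0.33 (SE 0.15, edgeR adjusted p = 0.507). Cox6b2 and Cox6a2 had the highest differences, 0.58 (SE 0.39) and 0.55 (SE 0.46), at levels of 0.263 to 1.72 CPM in the 6 libraries of the 2nd set, where the 95% intervals reached from -0.25 to 1.41 and from -0.43 to 1.54.

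In complex V, Atp5b, the catalytic beta subunit, stood at 1033, 1465 and 1008 CPM in the controls and 970, 1015 and 1271 CPM at 10 mg/kg. The groups overlapped (log2 difference -0.11, SE 0.13, edgeR adjusted p = 0.894). Atp5f1, a peripheral stalk subunit, gave -0.39 (SE 0.18, edgeR adjusted p = 0.508), and the ring subunit copy Atp5g2 -0.39 (SE 0.30, edgeR adjusted p = 0.790). The highest value of the complex was 0.04 for Atp5o, the subunit that joins the stalk to the catalytic head.

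The mitochondrial mRNAs gave log2 differences of -0.17 (mt-Atp8) to 0.26 (mt-Nd4l) at 10 mg/kg. mt-Co1 stood at 11686, 15963 and 10339 CPM in the controls and 12591, 12350 and 14121 CPM in the exposed samples. All 3 exposed values fell within the control range, and the log2 difference was 0.04 (SE 0.14, edgeR adjusted p = 0.976), with a 95% interval of -0.25 to 0.33. The only mitochondrial subunit of complex III, mt-Cytb, gave 0.13 (SE 0.11, edgeR adjusted p = 0.819). As a share of all counts the 13 mRNAs made up 2.28, 2.90 and 2.24% of the 2nd-set controls and 2.56, 2.33 and 2.70% of the exposed libraries (2.47% ± 0.37 and 2.53% ± 0.19, SD, n = 3 each).

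A difference that misses the threshold does not show equal levels, so the intervals set what these libraries could have shown. For 77 of the 81 nuclear and all 13 mitochondrial members the 95% interval at 10 mg/kg lay within 1 log2 unit of 0, against 79.4% of all genes. For 35 nuclear and 8 mitochondrial members it lay within 0.5 log2 units.

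At 3 mg/kg no member was called against the 1st-set controls, and neither was any other gene (0 of 94 members, 0% of all genes, edgeR). DESeq2 and limma-voom called 0 members as well. No member had an unadjusted p under 0.05, against 2.46% of all genes. The median log2 difference was 0.03 over nuclear members, with 50 of 81 above 0 against 50.9% of all genes, and -0.01 over mitochondrial members, with 6 of 13 above 0. The nuclear median turned to -0.02 without 3 mg/kg sample 1, so it has no settled sign.

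The libraries of the 1st set lay close together. Atp5b stood at 743, 799, 816 and 777 CPM in the 4 controls and 786, 845 and 789 CPM at 3 mg/kg, with overlapping groups (log2 difference 0.04, SE 0.12, edgeR adjusted p = 1). mt-Co1 stood at 10053, 9480, 10528 and 11324 CPM in the controls and 11368, 10161 and 9835 CPM in the exposed samples, also overlapping (0.02, SE 0.13, edgeR adjusted p = 1). In Ndufs6 and Uqcrq, small subunits of complexes I and III, all 3 exposed values exceeded all 4 controls, by log2 differences of 0.13 (SE 0.18) and 0.17 (SE 0.19). Such separation occurred for 6.62% of all genes at this dose, 3.71% with the exposed samples higher. The mitochondrial share was 2.35% ± 0.23 (SD, n = 4) in controls and 2.35% ± 0.22 (SD, n = 3) at 3 mg/kg. The 95% interval lay within 1 log2 unit of 0 for 77 of 81 nuclear and all 13 mitochondrial members.

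The difference between the responses to the 2 doses was tested as an interaction of the same fit. It called 0 of 94 members, against 0.00573% of all genes, and no member had an unadjusted p under 0.05, against 5.99% of all genes. The median difference of the responses was -0.15 over nuclear and 0.02 over mitochondrial members. The doses came from different sets, so dose and set cannot be told apart here.

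The largest contrast among the members was between untreated mice of the 2 sets. Against the 1st-set controls, the 2nd-set controls had 58 of 94 members called in edgeR, where 19.3% of all genes were called. Nuclear members accounted for 53 of these, all higher in the 2nd set, and no nuclear member was called lower, while 10.5% of all genes were called higher and 8.74% lower. The mitochondrial members split, with mt-Nd6 called higher and mt-Nd4, mt-Nd4l, mt-Nd5 and mt-Cytb called lower. Median log2 differences were 0.52 over nuclear and -0.17 over mitochondrial members, against -0.02 over all genes tested.

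This count moved with single libraries. Without 2nd-set control 2 it was 23 of 94, without 1st-set control 1 it was 35, and without 1st-set control 2 it was 38. Leaving out both of the deepest libraries of the 2nd set gave 48, of which 43 were nuclear and higher, and a nuclear median of 0.33. Of the 58 members, 23 were called in each of the 13 fits that left out 1 library. They included Ndufb4, Ndufb9, Uqcrc2, Uqcrq, Cox7a2, Cox8a, Atp5b, Atp5j, mt-Nd4l and mt-Nd5, and each of the other 35 lost its call without 2nd-set control 2. Among these were mt-Nd4, all 4 subunits of complex II, Ndufv1, Ndufb11, Cox7b and Ndufa11. The call of mt-Nd6 was lost in 5 of the 13 fits and that of mt-Cytb in 11. The mitochondrial median was -0.0042 without 2nd-set control 1.

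**Figure D3:**
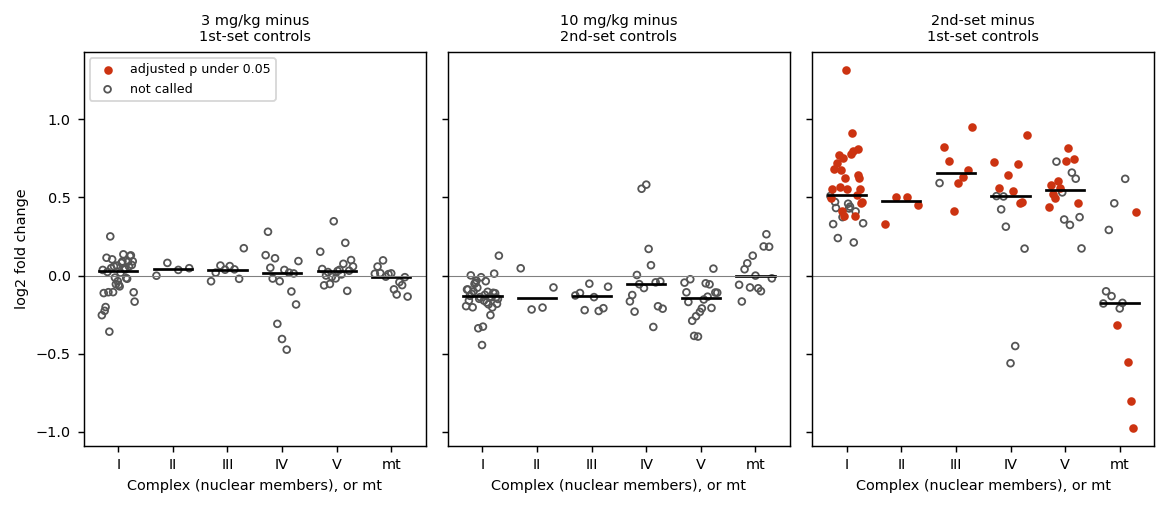
Log2 fold change of each kept member at 3 mg/kg, at 10 mg/kg and between the 2 control groups, by complex for nuclear members and in the last column for the 13 mitochondrial mRNAs; lines are medians and filled points have an adjusted p under 0.05. No point is filled at either dose, and between the controls 53 nuclear members are filled above 0 and 4 mitochondrial mRNAs below 0.

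In complex I, 24 of 36 nuclear members were called higher in the 2nd-set controls, against 10.5% of all genes. All 36 lay above 0, against 48% of all genes. Ndufb4 led all members: it stood at 3.40, 3.66, 4.05 and 4.04 CPM in the 1st-set controls and, as given above, at 8.52 to 10.4 CPM in the 2nd. The groups lay far apart, with a log2 difference of 1.32 (SE 0.17, edgeR adjusted p = 0.000535). Ndufb9, an accessory subunit, stood at 42.2, 38.6, 40.7 and 43.6 CPM against 62.3, 86.3 and 62.8 CPM, without overlap (0.77, SE 0.13, edgeR adjusted p = 0.00270). The core subunit Ndufv1, which holds the flavin that accepts electrons from NADH, gave 0.46 (SE 0.12, edgeR adjusted p = 0.0152). The largest core subunit, Ndufs1, gave 0.21 (SE 0.08) and was not called (edgeR adjusted p = 0.0665).

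All 4 subunits of complex II, which has no mitochondrially encoded part, were called higher, from 0.33 for Sdha to 0.50 for Sdhb and Sdhc. Of all genes 10.5% were called higher, and all 4 complex II calls were lost without 2nd-set control 2. Sdha stood at 322, 322, 337 and 333 CPM in 1st-set controls, all below its 369 to 489 CPM in the 2nd. In complex III 7 of 8 were called, and Uqcrq was the highest at 0.95 (SE 0.19, edgeR adjusted p = 0.00658). Uqcrq stood at 47.6, 45.7, 50.4 and 51.3 CPM in the 1st-set controls and 71.8, 132 and 78.9 CPM in the 2nd, without overlap. Uqcr10 was the exception, at 0.59 (SE 0.27, edgeR adjusted p = 0.146), and its level in 2nd-set control 1 (44.3 CPM) lay below all 1st-set controls.

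In complex IV 8 of 15 were called higher, against 10.5% of all genes. None of these 8 was a rarely detected isoform, and the largest difference was that of Cox8a. Its levels were 211, 208, 208 and 223 CPM in 1st-set controls and 289, 540 and 356 CPM in 2nd-set controls, without overlap (0.90, SE 0.17, edgeR adjusted p = 0.00516). The rarely detected isoforms went uncalled, at 0.51 for Cox4i2, 0.31 for Cox6a2, -0.45 for Cox7a1 and -0.56 for Cox6b2. Cox7a1 and Cox6b2 were the only nuclear members below 0. In complex V 10 of 18 were called. Atp5j, coupling factor 6 of the stalk, stood at 41.3, 37.0, 38.2 and 46.8 CPM against 60.4, 87.0 and 67.6 CPM, without overlap (0.81, SE 0.13, edgeR adjusted p = 0.00151). Of the ring subunit copies Atp5g1 was called (0.56, SE 0.12), while Atp5g2 (0.53, SE 0.29) and Atp5g3 (0.36, SE 0.15) were not.

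**Figure D4:**
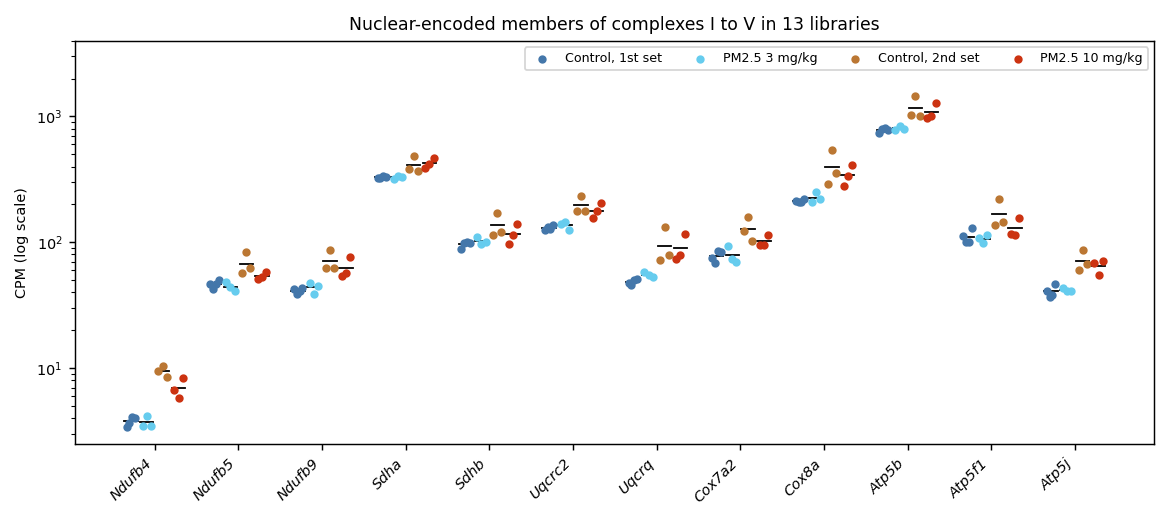
CPM (log axis) of 12 nuclear members of complexes I to V in every library; points are libraries and bars are group means. Ndufb4 runs from 3.40 to 4.16 CPM over the 1st set and from 5.74 to 10.4 CPM over the 2nd, and the highest point of the 2nd-set controls in each gene shown is control 2.

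The shift was shared by members on the X chromosome, whose genes may differ with sex-linked expression. Ndufb11 and Cox7b were called at 0.75 and 0.47, and Ndufa1 gave 0.51 without being called (edgeR adjusted p = 0.128). Gene length moved with the contrast as well: over all 17467 genes the log2 difference had a Spearman correlation of -0.15 with length, given as a description. Genes under 1 kb had a median of 0.12, and the 18 nuclear members in that class 0.64. For 29 nuclear members of 2 to 4 kb the median was 0.50, against 0.03 for all genes of that length. With an offset for gene length 66 members were called. These lengths include long alternative exons, so neither the classes nor the offset stand for the length of the mRNAs present. The part of length, depth or RNA quality in the shift was not tested.

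Promoter sequence was examined because so many nuclear members differed in one direction between the control groups. RefSeq promoters (GRCm38.p6, 250 bases before to 50 after the start) were matched by symbol for 69 of the 87 nuclear members. Both strands were searched for 4 exact strings that stand for factors known to act on respiratory genes; none of the strings contains another. GCGCATGCG, the NRF1 string, was present in 8 of 69 members (11.6%) and in 1.95% of all 27025 genes with a promoter. ACTTCCGG, an ETS string bound by GABP (also called NRF2 in this pathway), was found in 7.25% of members and 4.31% of all genes. TCAAGGTCA, for ERR receptors, was found in 2.90% against 0.466%, and AAGATGGCG, for YY1, in 11.6% against 1.64%. All genes here are those with a RefSeq promoter, detected in the bulb or not, so the shares are not set against expressed genes alone. A match is a description of letters and not a measured binding site, and most members held none of the 4 strings in this window. The stretches of 60 bases below show 1 example for NRF1, one for ERR and a pair for the ETS string, with the string in capitals and read on the gene's strand.
Ndufa11 (NRF1), 17:56717677-56717736, plus strand: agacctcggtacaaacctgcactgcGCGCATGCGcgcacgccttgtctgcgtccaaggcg
Atp5g3 (ERR, reverse complement), 2:73911344-73911403, minus strand: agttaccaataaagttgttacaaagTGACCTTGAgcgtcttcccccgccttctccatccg
Atp5h (ETS), 11:115419925-115419984, minus strand: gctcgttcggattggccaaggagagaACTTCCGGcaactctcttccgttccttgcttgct
Uqcrh (ETS), 4:116075071-116075130, minus strand: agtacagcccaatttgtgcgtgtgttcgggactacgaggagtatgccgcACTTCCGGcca
Ndufa11, Atp5h and Uqcrh were called higher in the 2nd-set controls (0.56, 0.73 and 0.68), and Atp5g3 was not. Among all 81 kept nuclear members 65.4% were called higher. The call of Ndufa11 was lost in 9 of the 13 fits that left out 1 library. Whether the strings go with the calls was not tested, and nothing is read from these examples.

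Between the control groups the mitochondrial mRNAs with the largest differences were mt-Nd5 and mt-Nd4l, both of complex I. mt-Nd5 stood at 793, 794, 768 and 971 CPM in the 1st-set controls and 476, 334 and 462 CPM in the 2nd. The groups lay apart by a log2 difference of -0.97 (SE 0.17, edgeR adjusted p = 0.00274). mt-Nd4l stood at 538, 511, 530 and 615 CPM against 337, 260 and 349 CPM, again without overlap (-0.80, SE 0.17, edgeR adjusted p = 0.00715). mt-Nd4 gave -0.55 (SE 0.13, edgeR adjusted p = 0.0112) and mt-Cytb, of complex III, -0.31 (SE 0.10, edgeR adjusted p = 0.0468). The complex I mRNAs mt-Nd1 (-0.21, SE 0.12, edgeR adjusted p = 0.214) and mt-Nd2 (-0.17, SE 0.16, edgeR adjusted p = 0.465) were not called.

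Other mRNAs lay on the opposite side. mt-Nd6, the only member encoded on the other DNA strand, stood at 227, 248, 205 and 232 CPM in the 1st-set controls and 339, 296 and 272 CPM in the 2nd, without overlap (0.41, SE 0.12, edgeR adjusted p = 0.0293). Its end overlaps that of mt-Nd5 on the opposite strand, so its reads could mix with those of mt-Nd5 where strand was not used. mt-Co3 stood at 3456 to 4541 CPM against 4789, 7067 and 4803 CPM, which did not overlap, but was not called (0.46, SE 0.16, edgeR adjusted p = 0.0546). mt-Nd3, also of complex I, stood at 204, 174, 216 and 287 CPM against 248, 456 and 310 CPM, with overlap, and was not called (0.62, SE 0.23, edgeR adjusted p = 0.0806). Nor was mt-Co1 (0.29, SE 0.13, edgeR adjusted p = 0.118). Groups without overlap made up 6 of 13 mitochondrial and 57 of 81 nuclear members, against 30.4% of all genes.

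Among the mitochondrial counts alone, mt-Co1 took 43.8 to 45.3% in 1st-set controls and 50.6, 52.8 and 45.8% in 2nd-set controls. mt-Nd5 took 3.30 to 3.80% in 1st-set controls and 2.06, 1.11 and 2.05% in the 2nd. In exposed libraries mt-Nd5 took 3.36 to 3.77% at 3 mg/kg and 2.40, 1.93 and 1.32% at 10 mg/kg. The lowest shares of mt-Nd5, 1.11 and 1.32%, were those of the deepest libraries, which also had the highest nuclear medians. The share of all mitochondrial members in the total did not part the sets, but the nuclear members took 0.562 to 0.601% in 1st-set controls and 0.694, 1.01 and 0.722% in the 2nd. The ratio of mitochondrial to nuclear counts was 4.06 ± 0.32 (SD, n = 4) in the former and 3.09 ± 0.20 (SD, n = 3) in the latter. At 3 mg/kg it was 3.96 ± 0.26 and at 10 mg/kg 3.40 ± 0.37 (SD, n = 3 each), and both overlapped their own controls. In bulk tissue, fewer cells of a type and less RNA per cell cannot be told apart.

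**Figure D5:**
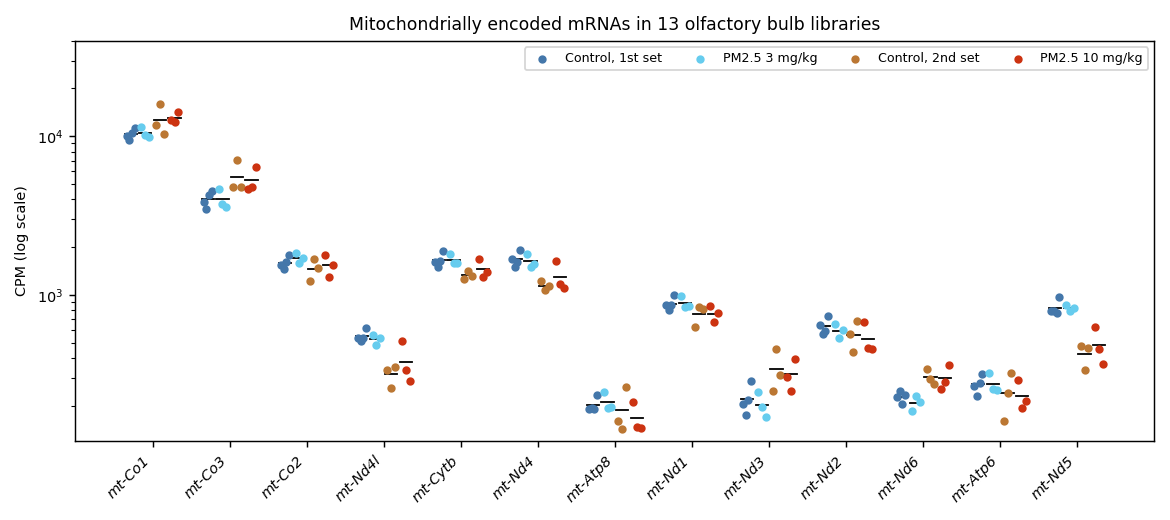
CPM (log axis) of the 13 mitochondrially encoded mRNAs in every library, ordered by mean FPKM; points are libraries and bars are group means. mt-Nd5, mt-Nd4 and mt-Nd4l are lower in both groups of the 2nd set than in the 1st-set controls, except mt-Nd4 (1627 CPM) and mt-Nd4l (512 CPM) in 10 mg/kg sample 1, while exposed and control points of a set overlap.

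Genes that serve the pathway without matching the symbol rule gave 0 calls at either dose in each list examined. These lists hold further subunits and cytochrome c, assembly factors of the 5 complexes, factors that express mitochondrial DNA, nuclear regulators, the tricarboxylic acid (TCA) cycle, glycolysis, ADP/ATP and related carriers, and mitochondrial ribosomal proteins. Cycs, the cytochrome c that carries electrons from complex III to IV, gave -0.55 at 10 mg/kg (SE 0.15, edgeR adjusted p = 0.137). Pfkp, a phosphofructokinase of glycolysis, was nearest to the threshold, at -0.41 (SE 0.09, edgeR adjusted p = 0.0535). Ucp2, an uncoupling carrier, gave 0.69 (SE 0.22, edgeR adjusted p = 0.226). Ppargc1a, the coactivator that drives respiratory genes, gave -0.22 (SE 0.11, edgeR adjusted p = 0.528) and -0.15 (SE 0.10) at the lower dose.

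For the supporting genes the control groups are read against the 10.5% of all genes called higher in the 2nd set and the 8.74% called lower. Of mitochondrial ribosomal proteins 42 of 77 were called higher and 73 lay above 0 (median 0.45), and of the TCA cycle 11 of 17 were called higher and 16 lay above 0 (median 0.36), led by Idh3a at 0.59 (SE 0.10). Carriers gave 7 of 9 higher, among them the ATP exporters Slc25a4 (0.63) and Slc25a5 (0.61), and 1 lower, Ucp2 (-0.86, SE 0.21). Glycolysis gave 8 of 19 higher, for example Ldha at 0.65 (SE 0.17). Complex I assembly factors gave 5 of 14, complex IV assembly factors 4 of 20, complex III 1 of 6 (Uqcc1), complex V 1 of 4 (Tmem70) and complex II 0 of 4. Of factors that express mitochondrial DNA 1 of 16 was called, Tfam, which packages it (0.34, SE 0.11). Against 10.5% of all genes, single calls in lists this short lie near or below the background or rest on 1 gene, and nothing is read from them. None of 9 nuclear regulators was called (median 0.10), and Cycs was the single call among 4 further subunits (0.76, SE 0.14).

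Markers of bulb neurons and of other cells were examined as well. The 10 bulb neuron markers summed to 2710 to 3030 CPM at 10 mg/kg and 3120 to 3470 CPM in their controls, without overlap. Of these markers 1 lay above 0 and none was called at this dose (median -0.15). Among all genes 52.8% lay below 0 and 0.641% were called. The red blood cell markers at 10 mg/kg summed to 114 to 302 CPM against 97.2 to 119 CPM in their controls, and markers of cortex and striatum to 67.6 to 134 against 54.9 to 61.4 CPM. The 5 astrocyte markers summed to 1660 to 1830 CPM at 10 mg/kg and 1130 to 1410 CPM in their controls. The sums of astrocytes and of cortex and striatum did not overlap, while those of red cells did. Among all single genes 10.4% had groups without overlap at this dose. All 5 astrocyte, 5 red cell and 6 cortical and striatal markers lay above 0, with medians of 0.19, 1.01 and 0.76. The astrocyte sum includes Gfap, so it does not stand for all 5 markers alike. Among the astrocyte markers Gfap was called higher at this dose (1.36, SE 0.16, edgeR adjusted p = 0.00171), and none of the red cell or cortical and striatal markers was. Between the control groups 10.5% of all genes were called higher and 8.74% lower, and 48% lay above 0. Here 2 of 5 endothelial markers were called lower, Cdh5 (-1.09) and Flt1 (-0.62), and 1 of 10 bulb neuron markers higher, Synpr (0.44). All 10 bulb neuron markers lay above 0 (median 0.23). Of 5 microglia markers Csf1r was called lower (-0.27), and of 5 oligodendrocyte markers Mobp was called higher (0.33). None of the 6 markers of olfactory sensory neurons and nasal epithelium was called, and all 6 lay below 0 (median -0.59). All 5 astrocyte markers also lay below 0, with none called (median -0.13). Skeletal muscle markers summed to no more than 8.85 CPM in any group. Between the controls, single calls in marker lists this short rest on 1 gene, and nothing is read from them. The part of these marker lists in the member values was not tested.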

How the data were processed

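Olfactory bulb RNA of 13 libraries was extracted with an RNeasy kit and made into TruSeq stranded total RNA libraries, per the labels. The submitters' processing notes name HISAT2 and mm10. Which counter, annotation and strand setting served is not given in the sources used here. The authors deposited a raw count and an FPKM value per gene. Count divided by FPKM and library total was constant per gene (largest relative deviation 5.88e-07 over 2894 genes with at least 1000 counts in every library), so FPKM holds no scaling beyond depth, and the quotient was used as gene length.

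Counts were fitted with edgeR 4.0.16 in R 4.3.3 (TMM, filterByExpr, robust quasi-likelihood F test), all 4 groups together, with 9 residual degrees of freedom, and 17467 genes were kept. P-values were adjusted by Benjamini-Hochberg over all kept genes and called under 0.05. SE and 95% intervals are approximate, from the F statistic. The fit was tested on simulated data. Precision rested on the spread among the few libraries of a group as well as on their total counts, 13 to 27.0 M per library.

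Members and gene lists were chosen with earlier results of these data known. Named genes are the members called in any contrast, all mitochondrial members, the extremes of each complex at the higher dose, isoforms, X-linked members, and of each list the called genes or the one with the smallest p. Not every gene the rule selects is given. Longer forms of the NRF1 and YY1 strings, searched first, matched fewer members and fewer genes. Promoter motifs, Ndufb5, Cox7a2 and Atp5f1 at the higher dose, Ndufs6 and Uqcrq at the lower, and the genes not called between the controls were chosen after their values were seen. Of the 100 members, 74 had the coordinates of GENCODE M21 (GRCm38), from which gene types, overlaps and shared 50-base stretches were taken. 32 overlap a gene on the opposite strand, among them Ndufb5, Ndufb11, Ndufs1, Ndufs6, Sdha, Uqcrc2, Uqcrh, Cox6a2, Atp5a1, Atp5f1, Atp5j and Atp5o. Reads of Atp5h, Ndufs5, Cox5b and Cox7c could be split with near-identical pseudogenes. Mitochondrial rRNA is not analysed here. Replicates in a group differed beyond sampling noise (lowest chi-square per gene 5.97). Alternatives were DESeq2 1.42.0, limma 3.58.1 (voom, and trend on log2(FPKM + 1)), other scalings and filters, separate fits, a replicate block and leaving out each library. Added after seeing the data were the fits without the deepest libraries, with a length offset and with the chromosome 1 copies added.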

Additional observations from a re-analysis of the deposited data

Results flagged for a closer look

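For the 1st-set controls 77 sets of 4 values were examined (named members and 3 shares or ratios of counts). In 5 of them 1 library stood apart relative to the range of the 4 values, where chance gives about 1 in 20. Control 4 stood highest for mt-Nd5 (971 CPM, others 768 to 794), mt-Atp8 (233 CPM, others 189 to 193) and Uqcrh (38.4 CPM, others 27.5 to 28.3). It was the highest 1st-set control for 12 of the 13 mitochondrial members, so the mt-Nd5 and mt-Atp8 values are not separate observations. Control 1 stood highest for Ndufc1, a small complex I subunit, at 16.5 CPM against 12 to 12.6. Control 3 stood highest for Ndufs8, an iron-sulfur subunit of complex I, at 39.6 CPM against 37.6 to 37.9.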

How the results depend on the processing

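The 0 calls among members at 3 and 10 mg/kg, and for the difference of the responses, held in the alternatives run. Between the control groups 58 members were called, 43 to 66 under the other tools, scalings, filters and added fits, and 23 to 69 with 1 library left out. With a replicate block it was 25. Same-numbered samples did not deviate together (correlations -0.34 to 0.13), so the numbers were not taken to pair samples; across numbers the deepest libraries, 2nd-set control 2 and 10 mg/kg sample 3, correlated at 0.45. With 1 library left out the nuclear median at 10 mg/kg ran from -0.291 to 0.0897 and the mitochondrial median between controls from -0.282 to -0.00419. Counts over all genes also moved: 112 were called at 10 mg/kg, but 277 by DESeq2, 69 with at least 1 CPM in every library, 5 with the block and 4 in a fit of the 2nd set alone, and 18 without 2nd-set control 3 or 51 without 10 mg/kg sample 2. At 3 mg/kg 0 became 17 by DESeq2, 2 by limma on FPKM and 9 in a fit of the 1st set alone. Between the controls 3364 genes were called, but 1474 with the block, 1307 without 2nd-set control 2, 2068 without 1st-set control 1 and 2145 without 1st-set control 2. No called value of a named member turned its sign in an alternative run. Few replicates, and 2 deep libraries in groups of 3, limit what these comparisons can show.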
